A study of Caenorhabditis elegans with 48 samples.

Results

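egg-1 to egg-4 are 4 genes of fertilization and egg activation in C. elegans, and the peaks described here are those of tagged Rb/E2F proteins around their transcript starts. A peak was assigned to a gene when it overlapped the 1 kb on either side of the start by at least 1 bp and had a q-value, the false discovery rate that the peak caller gives, below 0.001. By this rule 24 of the 57695 peaks of that q-value in the series belonged to the 4 genes, and 26 of 85924 when every deposited peak was taken. The starts, in the coordinates of genome release WS180, were position 5728131 of chromosome III for egg-1 (B0244.8, plus strand), 7060527 of chromosome III for egg-2 (R01H2.3, minus strand), 10884376 of chromosome II for egg-3 (F44F4.2, minus strand) and 3932213 of chromosome I for egg-4 (T21E3.1, plus strand). These starts come from the study's list of candidate targets, which places 2892 genes, so all 4 were on a list that was itself chosen from these binding data.

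EGG-1 and EGG-2 are membrane proteins of the oocyte surface with LDL-receptor repeats, and they are needed redundantly for sperm to enter the oocyte. EGG-3 and EGG-4 resemble protein tyrosine phosphatases but lack catalytic residues. EGG-3 holds the chitin synthase CHS-1 and the kinase MBK-2 at the cortex of the egg until activation, while EGG-4, together with its close paralog EGG-5, binds and restrains MBK-2. EFL-1 is an E2F transcription factor, DPL-1 its DP partner, and LIN-35 the only Rb-like pocket protein of the worm. HPL-2 is an HP1-like heterochromatin protein. E2F and DP bind DNA as a pair, and the pocket protein joins them through E2F.

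The sites listed for egg-3 are shown because they are the only bound sequence of these genes that could be read here. They come from a supplementary list of motif sites under germline-specific peaks, which has one site of each of 2 motifs for egg-3. The listed region was chrII:10884310-10884686, under the build label ce4, and it overlaps every germline peak at egg-3 by its numbering, although whether ce4 and WS180 number this stretch alike was not checked. The site is in capitals and the 10 flanking bases on each side are in lower case, each read 5′ to 3′ on the strand on which the site is listed.
egg-3 motif 1 site, minus strand: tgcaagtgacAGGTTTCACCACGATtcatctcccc
egg-3 motif 2 site, plus strand: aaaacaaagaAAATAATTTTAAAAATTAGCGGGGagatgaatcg
The 2 stretches share 14 bases once the first is reversed, so they join into a single run of 65 bases in which 6 bases separate the sites.
egg-3 joined stretch, plus strand: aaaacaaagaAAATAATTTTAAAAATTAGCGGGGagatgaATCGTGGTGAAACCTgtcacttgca
Searched on both strands, the joined stretch held none of the E2F words TTTCCCGC, TTTCGCGC, TTTGCCGC and TTTGGCGC, which were present in 1.92% of the 52 stretches listed for motif 1 and in 8.81% of all 193 stretches listed. It held no TTTGAA, the word of cell-cycle homology elements, which was present in 5.77% and 13.0% of the same stretches. It held TCACNNCGA once, on the minus strand within the motif 1 site. That word was taken from these same listed sites and was present in 4 of the 52 motif 1 stretches (7.69%), of which that of egg-3 is one. The listed stretches, at 35 bases for motif 1, are shorter than the joined one, so the shares are not for windows of equal length. The 193 stretches also include those listed for the motif that the study names germline E2F. Only the joined stretch was searched and not the rest of the listed region. Whether the egg-3 promoter holds E2F words elsewhere was thus not tested.

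The data are 23 peak lists from ChIP-seq with an antibody to GFP, one for each ChIP library of 11 strains. Every strain carried an integrated GFP:FLAG-tagged transgene with unc-119(+) in an unc-119(ed3) III background, made by bombardment, so each strain stands for 1 integrated line that also had its own untagged gene. In the 8 germline libraries, from young adults, the transgene was driven by germline regulatory sequences: pie-1 for EFL-1, DPL-1 and LIN-35, and mex-5 for a second LIN-35 strain. In the 15 larval libraries, from fed L1 larvae, the 3 factors were driven by their own regulatory sequences, expressed throughout the soma (6 libraries), or, like HPL-2, by the intestinal ges-1 sequence (9 libraries). Each strain had 2 replicates, and HPL-2 had 3. The ChIP was done on whole animals, and peak lists hold no RNA levels, so the labelled tissue was not checked here against marker genes. The study reports that the GFP signal of every tagged protein was nuclear and confined to the intended tissues. Tissue and stage change together between the germline and the larval libraries and cannot be told apart.

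Read depth was not in the peak lists, and read numbers were not used here. The number of peaks in each library is given in their place. Peaks with a q-value below 0.001 numbered 1041 to 4708 in the EFL-1 and DPL-1 libraries of the germline, 261 to 1257 in the germline LIN-35 libraries and 677 to 6165 in the larval libraries. No 2 lists were identical. The larval lists were thus mostly longer than the germline LIN-35 lists.

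All 4 genes had a peak in all 4 germline EFL-1 and DPL-1 libraries, 16 of 16 gene and library pairs. In the germline LIN-35 libraries 8 of 16 pairs had one, and in the larval libraries 0 of 60 did, with 0 of 60 also when every deposited peak was taken. Of the 2403 listed gene starts on chromosomes I to IV and X, 34.1% had a peak in all 4 germline EFL-1 and DPL-1 libraries, and 9.16% had a peak in no larval library. The 2 conditions together held for 85 gene starts (3.54%), of which the 4 genes were part, and for 0.230% of 50095 consecutive windows of the same width along the genome. Since the genes were chosen with this pattern known, it is described and was not tested.

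Library by library, all 4 genes had a peak in germline EFL-1 replicate 2, where 61.9% of the listed starts had one, in EFL-1 replicate 3 (80.8%), in DPL-1 replicate 1 (38.8%), in DPL-1 replicate 4 (56.0%) and in pie-1 LIN-35 replicate 2 (19.4%). In pie-1 LIN-35 replicate 3, 2 of the 4 had a peak (9.70% of listed starts). In mex-5 LIN-35 only egg-1 had one, both in replicate 1 (30.0%) and in replicate 2 (8.49%). Of windows of the same width along the genome, 0.613% to 10.2% held a peak in a germline library.

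egg-1 was the gene with the most complete occupancy, with a peak in each of the 8 germline libraries. The q-value was 4.46e-60 in germline EFL-1 replicate 2 and 3.20e-135 in replicate 3. For DPL-1 it was 1.89e-15 in replicate 1 and 3.37e-33 in replicate 4. For LIN-35 under pie-1 it was 7.45e-13 in replicate 2 and 4.52e-06 in replicate 3, and under mex-5 it was 3.71e-05 in replicate 1 and 6.37e-04 in replicate 2. Of all 819 gene starts with a peak in the 4 EFL-1 and DPL-1 libraries, 7.81% also had one in all 4 LIN-35 libraries, and of the 85 that lacked a larval peak, 4.71% did. egg-1 was the only member of that group among the 4 genes.

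egg-2 had the largest q-values of the 4 genes in each of the 5 libraries with a peak at all of them. For EFL-1 the q-value was 7.56e-15 in replicate 2 and 6.66e-45 in replicate 3, and for DPL-1 it was 4.00e-04 in replicate 1 and 4.42e-08 in replicate 4. LIN-35 under pie-1 had a peak of q-value 7.54e-04 in replicate 2, while the replicate 3 peak, at 8.86e-03, lay above the threshold. LIN-35 under mex-5 had no deposited peak in the window in either replicate. DPL-1 replicate 1 and LIN-35 replicate 2 were both just inside the threshold, and LIN-35 replicate 3 was outside it.

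egg-3 had EFL-1 peaks of 7.18e-21 in replicate 2 and 4.07e-70 in replicate 3, and DPL-1 peaks of 1.68e-11 in replicate 1 and 5.49e-15 in replicate 4. LIN-35 under pie-1 had a peak in both replicates, at 2.56e-04 in replicate 2 and 9.25e-04 in replicate 3. LIN-35 under mex-5 had none in the window. The 2 LIN-35 values were each larger than the 4 others by several orders of magnitude.

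egg-4 had EFL-1 peaks of 6.15e-62 in replicate 2 and 5.87e-123 in replicate 3, and DPL-1 peaks of 3.16e-13 in replicate 1 and 1.61e-21 in replicate 4. LIN-35 under pie-1 had a peak of 2.31e-08 in replicate 2 and one of 1.77e-03, above the threshold, in replicate 3, and LIN-35 under mex-5 had none. Among the 819 gene starts, 45.4% had a peak in LIN-35 replicate 2, 18.4% in both pie-1 LIN-35 replicates and 46.9% in neither mex-5 LIN-35 replicate. Among the 85 without a larval peak these shares were 50.6%, 14.1% and 85.9%. All 4 genes belonged to the first of these groups, egg-1 and egg-3 to the next, and egg-2, egg-3 and egg-4 to the last, so a lack of mex-5 LIN-35 peaks was the common state among starts of this kind. egg-4 has a near-identical paralog, egg-5, which the target list does not place. How reads that match both copies were treated was not given in the sources used here, so the egg-4 values carry that uncertainty.

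**Figure D1:**
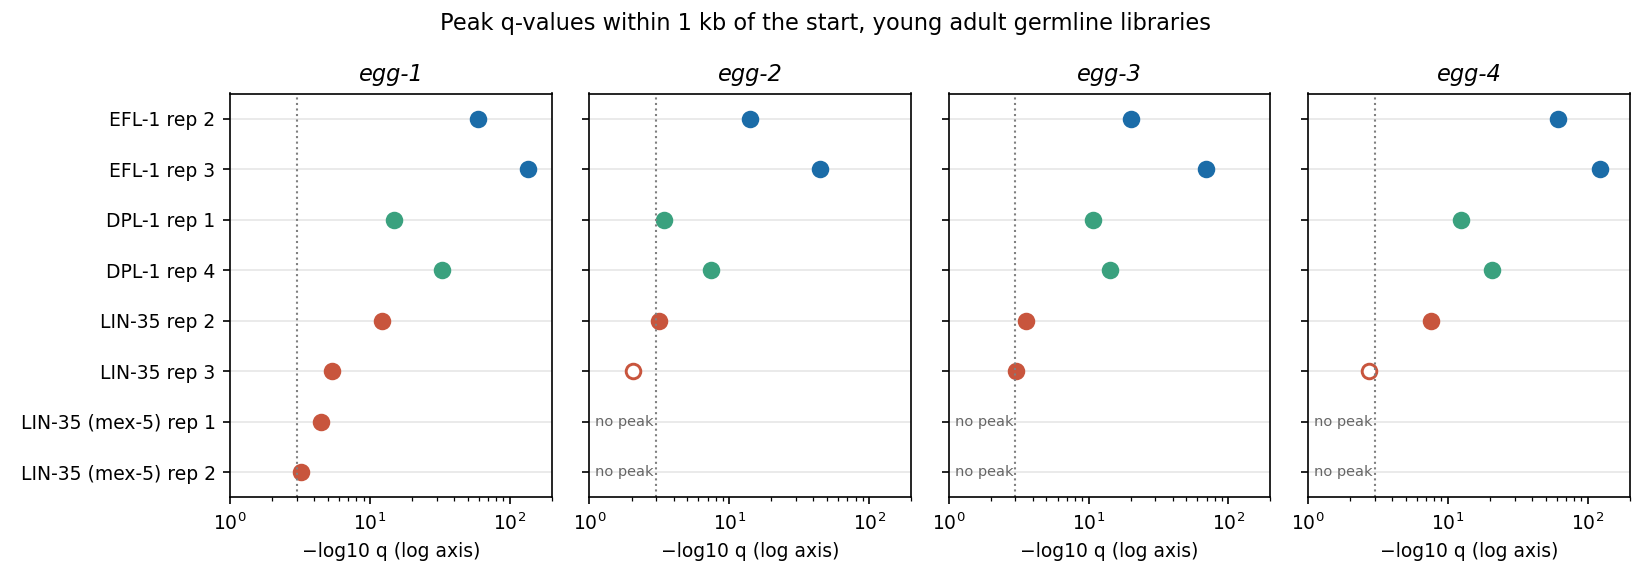
Each point is the −log10 q-value of the peak within 1 kb of the start in one germline library (x axis, logarithmic), with a panel for each gene and a row for each library. Filled points have q-values below 0.001 (dotted line), open points lie above it, and "no peak" means that no deposited peak was in the window. egg-1 has a filled point in all 8 rows and the other genes in 5 or 6.

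A q-value depends on depth, so the genes were ordered within each library. Over the 5 libraries with a peak at all 4 genes, the order was the same but for one exchange. egg-1 was first in 4 of the 5 and egg-4 was first in EFL-1 replicate 2. egg-3 came next and egg-2 last in all 5. In EFL-1 replicate 2, egg-4 was at rank 27 of 2475 peaks, egg-1 at 30, egg-3 at 300 and egg-2 at 507. In EFL-1 replicate 3 the ranks of 4708 peaks were 40 for egg-1, 61 for egg-4, 227 for egg-3 and 430 for egg-2. In DPL-1 replicate 1, egg-1 was at rank 70 of 1041 peaks and egg-2 at 893, and in DPL-1 replicate 4 egg-1 was at rank 74 of 1932 and egg-2 at 757. LIN-35 replicate 2 had egg-1 at rank 33, egg-4 at 99, egg-3 at 439 and egg-2 at 596 of 701. egg-1 and egg-2, the oocyte surface pair, thus stood at opposite ends of the order in 4 of the 5 libraries, and egg-4 stood ahead of egg-3 in all 5.

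To compare the factors, every peak of q-value below 0.001 was given its rank percentile within its library (100 for the smallest q-value), a library without a peak got 0, and EFL-1 and DPL-1 were set against LIN-35 in the 8 germline libraries. This comparison was made at all 2720 merged regions with a peak in at least 2 of the 8 libraries. It used an exact two-sided permutation test, for which 4 libraries against 4 cannot give a p below 0.0286. Each set held 2 strains with 2 replicates each, and the test took the libraries as independent. The 4 genes were chosen with their germline EFL-1 and DPL-1 peaks known. The study's germline-specific class required such peaks but not LIN-35 ones. At the 4 genes that side was thus largely settled beforehand, so their p-values are a description and not a test. The percentile at egg-3 was 87.7 ± 5.63 (SD, n = 4) for EFL-1 and DPL-1 and 11.1 ± 17.9 (SD, n = 4) for LIN-35, with an exact permutation p of 0.0286 and 0.149 after Benjamini-Hochberg adjustment over all regions. At egg-4 the percentiles were 94.2 ± 5.35 and 21.5 ± 43.0 (SD, n = 4 each), with the same exact p of 0.0286 and adjusted p of 0.149. The 2 sets of libraries did not overlap at these 2 genes, which was so, in the same direction, at 19.1% of all regions, while LIN-35 stood above both other factors without overlap at 0.0735%.

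At egg-1 and egg-2 the sets overlapped. The egg-1 percentile was 96.9 ± 2.69 for EFL-1 and DPL-1 and 55.4 ± 37.1 for LIN-35 (SD, n = 4 each), with an exact permutation p of 0.0571 and an adjusted p of 0.250. LIN-35 replicate 2, at 95.4, stood above DPL-1 replicate 1, at 93.4. The egg-2 percentile was 61.4 ± 33.7 and 3.78 ± 7.56 (SD, n = 4 each), with the same exact p of 0.0571 and adjusted p of 0.250. There too LIN-35 replicate 2, at 15.1, stood above DPL-1 replicate 1, at 14.3. No region passed an adjusted p of 0.05 in this test, and 521 had an unadjusted p below it. The smallest adjusted p of any region in this permutation test was 0.149, so it gives no verdict on the 4 differences. The difference was positive at 93.3% of all regions, with a median of 27.4 percentile points, and the LIN-35 lists were shorter than most of the EFL-1 and DPL-1 lists. The part of list length in these differences was not tested.

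Without germline DPL-1 replicate 1, or without pie-1 LIN-35 replicate 2, the sets did not overlap at any of the 4 genes, so both overlaps rest on those 2 libraries. The share of all regions without overlap was then 36.9% and 21.7%, respectively. The dates in the labels give 1 comparison within a date, EFL-1 replicate 3 with pie-1 LIN-35 replicate 2. On that date EFL-1 had the higher percentile at all 4 genes, by 3.74 points at egg-1, 75.8 at egg-2, 57.7 at egg-3 and 12.7 at egg-4, as it had at 95.9% of all regions. The DPL-1 and mex-5 LIN-35 libraries share a date with no other germline strain, so no further comparison within a date was possible.

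**Figure D2:**
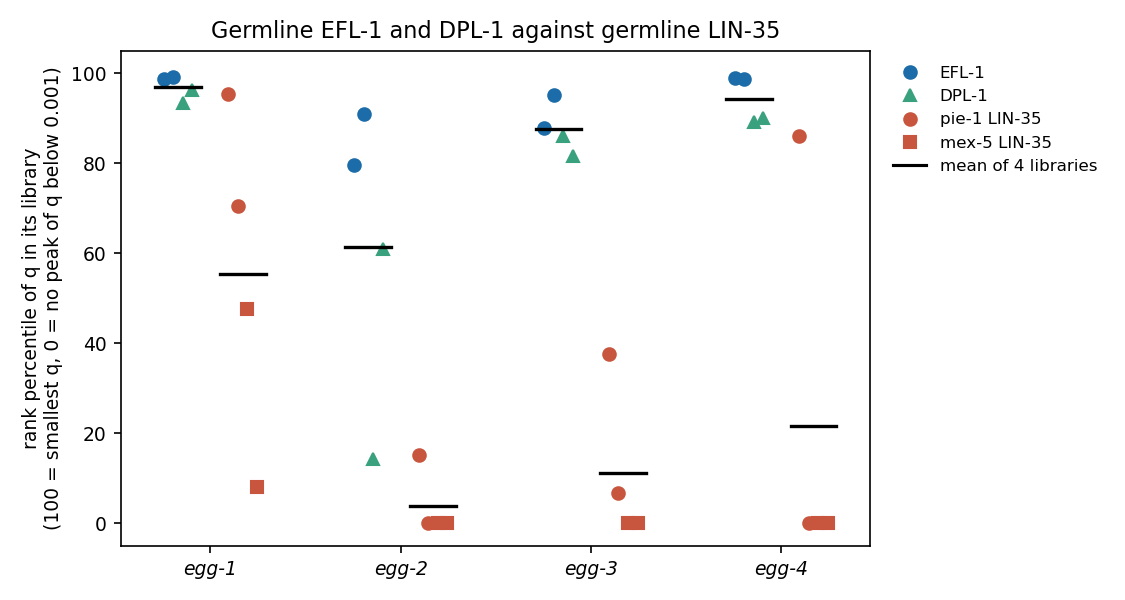
Rank percentile of the peak's q-value within its library (y axis, 100 is the smallest q-value and 0 is no peak of q-value below 0.001) at each gene, for germline EFL-1 and DPL-1 on the left and germline LIN-35 on the right. Points are libraries and bars are means of 4. The sets do not overlap at egg-3 and egg-4, and at egg-1 and egg-2 one LIN-35 library stands above one DPL-1 library.

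The germline peaks lay just upstream of the starts. The centre was upstream in all 24 of them, between 394 and 22 bp from the start with a median of 150 bp, and 15 of 24 spanned the start itself. Over all listed gene starts, 81.7% of 7330 germline peaks had their centre upstream and 44.4% spanned the start. The peaks of different factors lay over one another, so the 24 are repeated calls at 4 genes and not 24 independent sites. The stretch common to all germline peaks at a gene was 211 bp at egg-1 (5727845 to 5728055 of chromosome III), 90 bp at egg-2 (7060601 to 7060690 of chromosome III), 195 bp at egg-3 (10884389 to 10884583 of chromosome II) and 373 bp at egg-4 (3931787 to 3932159 of chromosome I). Each common stretch lay wholly upstream of the start. By RefSeq gene order, the next protein-coding gene on the upstream side is wrm-1 for egg-1, R01H2.4 for egg-2, F44F4.3 for egg-3 and T21E3.2 for egg-4. Whether the peaks also belong to these neighbours was not tested. The median distance of the centre from the start was 312 bp at egg-4 (394 to 107.0 bp), 198 bp at egg-2 (224 to 86.0 bp), 162 bp at egg-1 (192 to 22.0 bp) and 104 bp at egg-3 (134 to 71.5 bp), and the ranges overlapped between genes.

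Peak width varied with the library as well as the gene. The EFL-1 peaks in replicate 3 were 769 bp wide at egg-1, 823 bp at egg-2, 526 bp at egg-3 and 742 bp at egg-4, against a median of 336 bp for that library. The narrowest peak at egg-2, in DPL-1 replicate 1, was 155 bp wide, against a median of 300 bp. LIN-35 peaks at egg-1 ranged from 648 bp in pie-1 replicate 2 to 211 bp in mex-5 replicate 1.

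A weaker peak near the end of the transcript accompanied 3 of the 4 genes in EFL-1 replicate 3, the library with the most peaks of the germline. At egg-4 it lay at 3934708 to 3935021 of chromosome I, with a q-value of 4.19e-09 and its centre 72.5 bp past the transcript end. At egg-2 it lay at 7058178 to 7058532 of chromosome III, with a q-value of 9.37e-06 and its centre 218 bp past the end, and mex-5 LIN-35 replicate 1 had a peak of 4.34e-04 at the same place although it had none at the egg-2 start. At egg-1 the centre was 464 bp before the end, with a q-value of 2.59e-04, and EFL-1 replicate 2 had a peak of 18 bp with a q-value of 7.90e-03, above the threshold, farther inside the transcript. Of 1194 listed genes over 1600 bp long with a peak at the start in that library, 24.7% also had one within 600 bp of the transcript end. No such peak was listed in EFL-1 replicate 2 at egg-2 or egg-4, and none at egg-3 in any library. By RefSeq gene order (assembly WBcel235), the next protein-coding gene on the downstream side is B0244.9 for egg-1, R01H2.2 for egg-2, lurp-1 for egg-3 and lrp-2 for egg-4. Distances to these neighbours were not measured, and whether the peaks near the transcript ends belong to them was not tested.

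**Figure D3:**
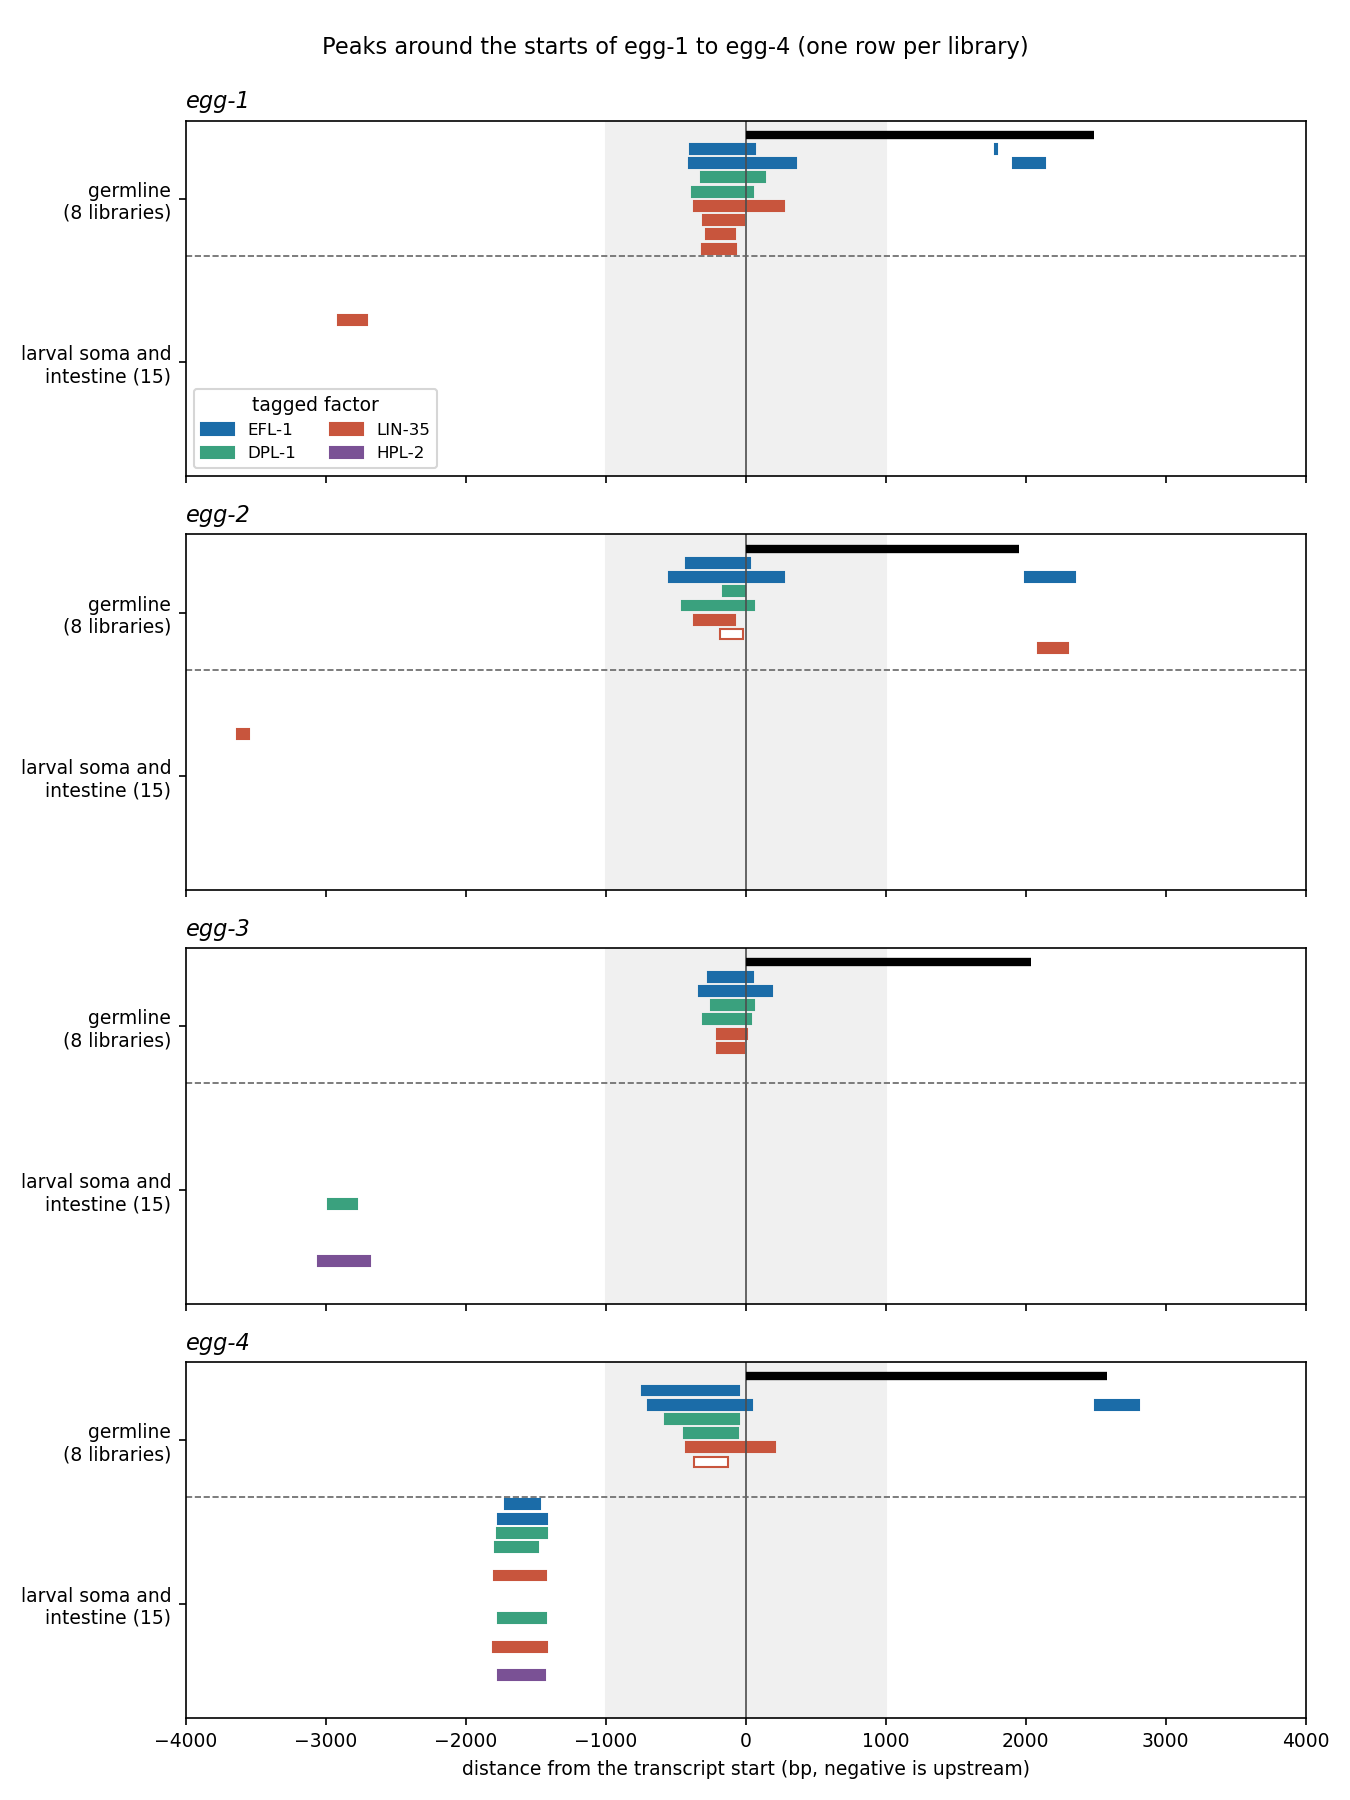
Peaks by distance from the transcript start (x axis, in bp, negative is upstream) with a panel for each gene and a row for each library, the 8 germline libraries above the dashed line and the 15 larval ones below it. Filled bars have q-values below 0.001 and outlined bars lie above it (at egg-1 the narrow bar of 18 bp in EFL-1 replicate 2 is one of these), the black bar is the transcript, the grey band is the 1 kb on either side, and for larval libraries the nearest peak is drawn where it is within 4000 bp. The germline bars stack up at the start, and no larval bar enters the grey band.

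The larval libraries had peaks in the neighbourhood of egg-4 but not at its start. Their nearest edge was 1417 bp upstream of it, and 8 of the 15 larval libraries had a peak within 2 kb. These peaks lay between 3930408 and 3930796 of chromosome I, upstream of the neighbouring gene T21E3.2, whose start on the same strand (3930833) is 1380 bp before that of egg-4. The q-values were 3.35e-05 and 2.81e-16 in somatic EFL-1 replicates 1 and 2, 1.34e-29 and 1.45e-07 in somatic DPL-1 replicates 1 and 2, and 5.68e-12 in somatic LIN-35 replicate 2. Somatic LIN-35 replicate 1 had a peak of 2.33e-03 there, above the threshold. In the intestine DPL-1 replicate 1 had a peak of 1.36e-15, LIN-35 replicate 1 one of 1.67e-16 and HPL-2 replicate 1 one of 3.17e-04, and no intestinal EFL-1 library had one. None of the 8 germline libraries had a deposited peak over this stretch, and a gap of 675 bp separated the larval peaks from the germline peaks of q-value below 0.001 at egg-4. The starts are close enough that the egg-4 peaks of 5 germline libraries also began within 1 kb of the T21E3.2 start, whereas no larval peak over the stretch reached within 1 kb of the egg-4 start.

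At the other genes larval peaks were farther away. The nearest larval peak was 2702 bp from the start of egg-1, with a median over the 15 libraries of 5910 bp, 3546 bp from that of egg-2 (median 8028 bp) and 2687 bp from that of egg-3 (median 11529 bp). Within 5 kb of the start, 2 larval libraries had a peak at egg-1, 1 at egg-2 and 2 at egg-3. The lack of larval peaks was not shared by listed gene starts in general, since the share with a peak within 1 kb ranged from 15.8% in HPL-2 replicate 2 to 87.6% in intestinal LIN-35 replicate 1, although that list was drawn up from bound genes. No other gene of the target list had its start within 5 kb of one of the 4 genes.

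Other genes of fertilization, the eggshell and the change from oocyte to embryo were taken as a list of 27 genes, 18 that act in the oocyte or egg and 9 in sperm. The target list placed 13 of them on chromosomes I to IV and X, all on the oocyte side, and none of the sperm genes. The study itself names several of the 13 as germline-specific targets, among them cpg-2, cpg-3, gna-2, cbd-1 and chs-1. The share of all genes in the genome that the list places was not computed. Whether the oocyte and sperm sides differ was thus not tested. Of the 13, 10 had a peak in all 4 germline EFL-1 and DPL-1 libraries (34.1% of listed starts), 8 had none in a larval library (9.16%) and 6 had both. None had a peak in all 4 LIN-35 libraries, as egg-1 had. As the target list was drawn from these data, the placed genes are not an independent sample of the process. All but clec-87 were in the study's germline-specific class, defined by germline EFL-1 and DPL-1 binding without somatic DPL-1 binding. Their counts follow in part from that class and cannot be read against the shares of all listed starts.

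Among the genes with both properties, cpg-2, a chondroitin proteoglycan of the eggshell, had EFL-1 q-values of 1.30e-82 and 1.80e-186 in replicates 2 and 3 and a peak in 3 of the 4 LIN-35 libraries. rme-2, the yolk receptor of the oocyte, had q-values of 1.39e-62 and 2.64e-145, and oma-1, which encodes an RNA-binding protein of oocyte maturation, had 5.26e-35 and 2.03e-74. Both had a peak in 2 LIN-35 libraries. clec-88, which encodes a C-type lectin, egg-6, which encodes a leucine-rich repeat membrane protein, and puf-5, which encodes an RNA-binding protein, had a peak in 1 LIN-35 library each.

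Of the genes for the EGG-3 partners CHS-1 and MBK-2, only chs-1 was placed. chs-1, the chitin synthase gene, had a peak in all 4 EFL-1 and DPL-1 libraries, in 1 LIN-35 library and in 1 larval library, with EFL-1 q-values of 1.57e-43 and 1.55e-76. mbk-2 was not placed by the target list, nor was egg-5. The remaining placed genes varied. cbd-1, a chitin-binding protein gene of the eggshell, had a peak in all 4 germline EFL-1 and DPL-1 libraries and in 8 larval ones, and clec-87 in all 4 and in 13. mei-2, a subunit of the katanin of the meiotic spindle, had one in all 4 and in 3 larval libraries. zif-1, whose product is an adaptor for degrading germ plasm proteins, had a peak in 3 of the 4 and in no larval library. gna-2, an enzyme gene of the chitin precursor, had a peak in 2 of the 4 and in no larval library, and cpg-3 in 2 of the 4 and in 2 larval libraries.

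**Figure D4:**
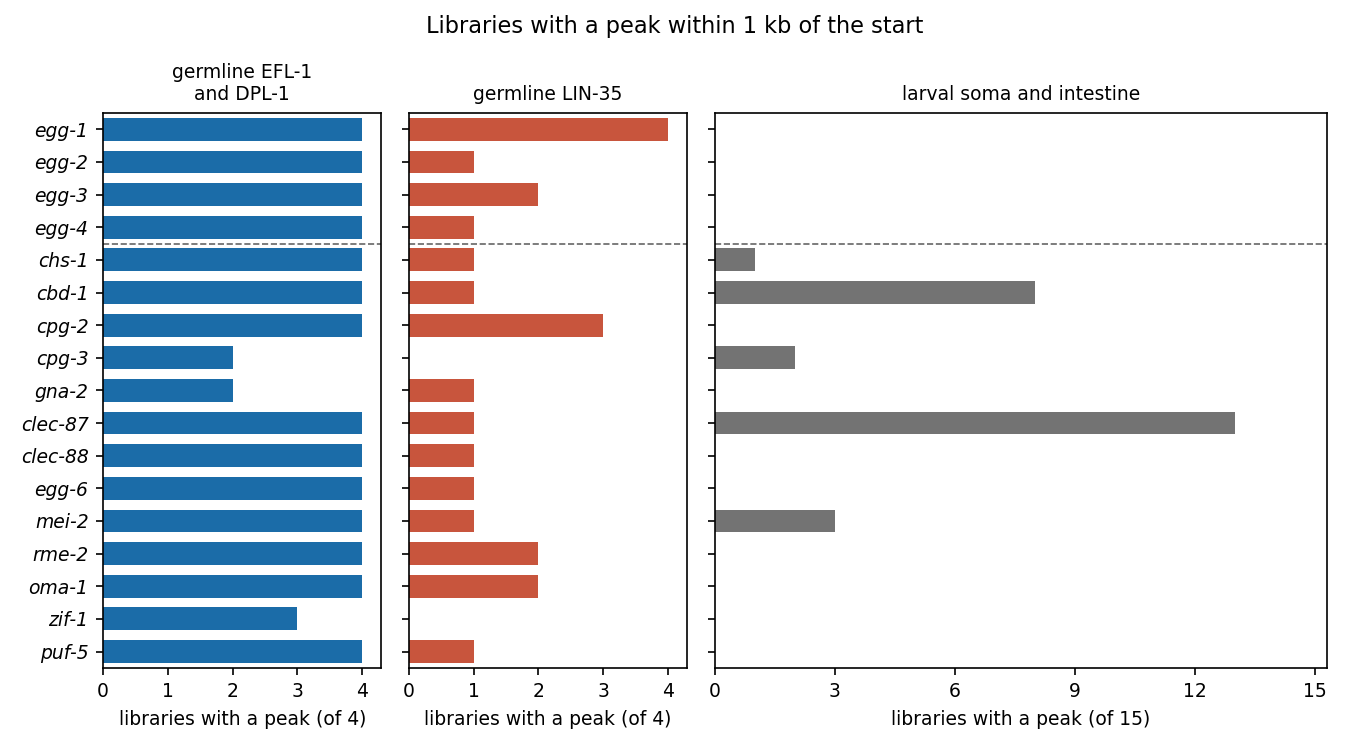
Number of libraries (x axis) with a peak of q-value below 0.001 within 1 kb of the start, for the 4 genes above the dashed line and 13 listed genes of fertilization, eggshell and early embryo below it. Panels are the 4 germline EFL-1 and DPL-1 libraries, the 4 germline LIN-35 libraries and the 15 larval libraries. Larval bars are absent for egg-1 to egg-4 and reach 13 for clec-87.

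The gene starts most like each of the 4 genes were found over 22 libraries as those with the smallest mean absolute difference in rank percentile, HPL-2 replicate 3, for which the labels give no input sample, being left out. All 22 values of a gene share their libraries, and most are 0 for these genes, so the measure is a description. For egg-1 they were par-3, a cell polarity gene, with a mean difference of 1.97 percentile points, cpg-2 with 2.12 and Y73B6BL.45 with 2.62. For egg-2 they were C28A5.1 with 1.73, and Y48G1BM.8 and snpc-3.2 with 1.79 each. For egg-3 they were C16C10.13 and hrde-1, a nuclear Argonaute gene, with 1.65 each, and ZK1067.8 with 2.05. For egg-4 they were cdd-2 and oef-1, with 0.531 each, and the start listed for mir-35, a microRNA gene, with 0.706. Genes with the same value are neighbours on opposite strands. Each of these had no peak in a larval library. Among the 4 genes themselves, egg-3 and egg-4 were closest, at 3.69 points, and egg-1 and egg-2 the farthest apart, at 15.8.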

How the data were processed

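Chromatin from whole animals was immunoprecipitated with an antibody to GFP and sequenced. Per the file headers and the study's methods, the deposited peaks were found by the authors with PeakSeq, library by library and relative to input DNA, in WS180 coordinates, and each has a q-value. The labels give a second sequencing run for 3 replicates, each of which has a single peak list. The sample titles do not say how those runs were combined. The aligner was not given in the sources used here. None of the 22 input samples carries a peak list, and the labels give no input sample for HPL-2 replicate 3, so what its peaks were called against is not known here. No read depth or signal is in the lists, so a missing peak cannot be told apart from a peak below the calling threshold.

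Peaks of q-value below 0.001, the study's threshold, were matched to starts taken from its target list. Chromosome V starts were left out of the 2403 starts used as background because that list is offset there. Percentile ranks, merged regions and the exact permutation test were computed in Python (3.11.15) with numpy (2.4.6) and scipy (1.17.1), and the code was tested on simulated data. Named genes are the 4 genes, target-list neighbours within 5 kb, the fertilization list and the 3 most alike starts of each gene. The members, the lists and the tests were chosen with earlier results of these data known. Alternatives were other q-value thresholds, windows and overlaps, the −log10 q-value, each LIN-35 strain alone, each replicate left out and a replicate block. The study calls its replicates biological. The 3 HPL-2 replicates carry 1 date in the labels, and where replicates do not come from separate cultures the p-values measure only the spread between samples.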

Additional observations from a re-analysis of the deposited data

How the results depend on the processing

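All of the 16 germline EFL-1 and DPL-1 pairs of gene and library kept a peak with every deposited peak, with 500 bp or 2 kb on either side and with a share of 0.5 of the peak required in the window, and 15 did at a q-value below 1e-05. The germline LIN-35 count of 8 was 3 at a q-value below 1e-05 and 10 with every deposited peak, and ranged from 4 to 7 when 1 library was left out, being 4 of 12 without pie-1 LIN-35 replicate 2. The larval count of 0 became 8 with 2 kb on either side, from the peaks upstream of T21E3.2 near egg-4, and stayed 0 under the other alternatives. With 1 library left out, the germline EFL-1 and DPL-1 count was 12 of 12 throughout and the larval count 0 of 56.

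The number of genes whose germline sets did not overlap, 2 of 4, became 4 with the −log10 q-value (21.8% of all regions), 4 with mex-5 LIN-35 alone (22.0%) and 1 with every deposited peak, where egg-4 overlapped, with a difference of 52.2 points against 72.7. With pie-1 LIN-35 alone it was 2 (24.9% of all regions). It ranged from 2 to 4 with 1 library left out. The share of all regions, 19.1%, was 11.4% with every deposited peak and ranged from 19.2% to 36.9% with 1 library left out, the highest being without DPL-1 replicate 1. No difference changed sign. With the replicate block, that is germline EFL-1 against pie-1 LIN-35 within numbers 2 and 3, EFL-1 was higher in both pairs at 4 of 4 genes and 75.8% of regions. The same 4 libraries without the block, an alternative added after seeing the data, did not overlap at 4 genes and 75.3% of regions. The labels do not say that equal numbers mark a shared batch, and by their dates EFL-1 and pie-1 LIN-35 libraries of equal number differ in date. The deviations of the paired numbers had a correlation of 0.11 across regions, and whether equal numbers share a batch was not tested. The cause of these changes was not tested.

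Peak calls limit what a missing peak shows, and the mex-5 LIN-35 replicate 2 list, at 261 peaks, was the shortest. The P-values compare libraries of 1 line for each strain.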
